A study of Mus musculus with 4 samples.

Results

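Collagens are the main structural proteins of the extracellular matrix, and their chains were followed here in mature adipocytes of the skin and of the groin fat pad of the mouse. Every row of the deposited gene table whose symbol has the form Col, a number, a and a number was taken as a member, which gave 44 of 18781 genes. Of the 44, 30 reached the expression filter of at least 1 normalized CPM (a read count scaled to the depth of its library) in at least 2 libraries and were tested, and 14 did not. Dermal adipocytes came from dorsal skin and inguinal adipocytes from the inguinal fat pad of mice of the inbred strain C57BL/6 on postnatal day 30. Both preparations were digested with collagenase IV and dispase II and purified by flotation, and the labels give no genetic change, treatment or sex for either group. Each depot gave 2 libraries of total RNA, and the labels do not say whether they came from separate animals, so the spread between libraries of a depot may be technical.

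Collagen chains assemble as trimers into fibrils, sheets or filaments. Fibrillar collagens (types I, II, III, V, XI, XXIV and XXVII) build the banded fibrils of connective tissue, and fibril-associated collagens sit on the fibril surface. Type IV collagen forms the sheet of the basement membrane, which wraps mature adipocytes, and the multiplexins (types XV and XVIII) lie in the zone around it. Type VI collagen forms beaded filaments that are abundant in fat, whereas the short-chain types VIII and X form lattices. The remaining members are the transmembrane types XIII, XVII, XXIII and XXV, the anchoring fibril collagen type VII, and types XXVI and XXVIII.

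The libraries held 10127125 to 12730013 reads assigned to genes. Adipocyte transcripts were abundant in all 4 libraries: the 10 genes of an adipocyte list summed to 39506 and 35977 CPM in dermal libraries against 41745 and 37944 CPM in inguinal ones, and Cfd, the adipocyte serine protease adipsin, and Fabp4, a fatty acid carrier, had its highest mean levels. Of the 10, 8 had a log2 fold change, dermal over inguinal, above 0, and the median was 0.21. Plin1 (0.96) and Lep (1.16) passed the limma test given below as higher in dermal libraries, and 0 passed as higher in inguinal ones. Fabp4 (-0.67) did not pass. DESeq2 called 1 gene in the inguinal direction. The limma calls were 20% and 0% of the list, against 7.56% and 8.80% of all genes tested. Transcripts of other cell types were present as well. A list of 12 macrophage markers summed to 1768 and 1693 CPM in dermal libraries against 620 and 573 CPM in inguinal ones, led by Mrc1 (log2 fold change 1.57) and Lyz2 (1.42). Endothelial markers, 12 in number, summed to 456 and 502 CPM in dermal libraries against 1662 and 2524 CPM in inguinal ones, led by Cdh5 (-2.06) and Pecam1 (-1.93). In such bulk libraries fewer cells of a type and less RNA per cell cannot be told apart.

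Collagen transcripts in sum were higher in dermal than in inguinal libraries, and most of the chains that passed the test were too. All 44 chains together summed to 17760 and 29081 CPM in the dermal libraries and to 9923 and 14913 CPM in the inguinal libraries. Both dermal sums lay above both inguinal sums, with a ratio of the depot means of 1.89, and replicate 2 was the higher library of each depot. Within replicate number 1 the ratio was 1.79 and within number 2 it was 1.95. An exact two-sided permutation test of 2 against 2 libraries cannot go below 0.333, so no test was made of this sum.

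Among the 30 tested chains, 11 passed as higher in dermal libraries, 2 passed as higher in inguinal libraries and 17 did not pass (limma on log2(CPM + 0.5), Benjamini-Hochberg adjusted p below 0.05 over all 12797 genes tested, two-sided). Over all genes tested, 7.56% passed as higher in dermal and 8.80% as higher in inguinal libraries. The median log2 fold change, dermal over inguinal, was 0.79 over the 30 chains and 0.016 over all genes. The difference was above 0 within both replicate numbers for 21 chains, against 40.3% of all genes, and below 0 within both for 5 chains, against 38.5%. Values of the depots did not overlap for 22 chains, of which 17 were higher in dermal (31.6% of all genes) and 5 higher in inguinal libraries (30.1%). For 3 of the 30 the filter was met by 1 depot alone, namely Col11a1 and Col4a4 by the dermal and Col13a1 by the inguinal libraries, so these had to differ to enter the test.

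**Figure D1:**
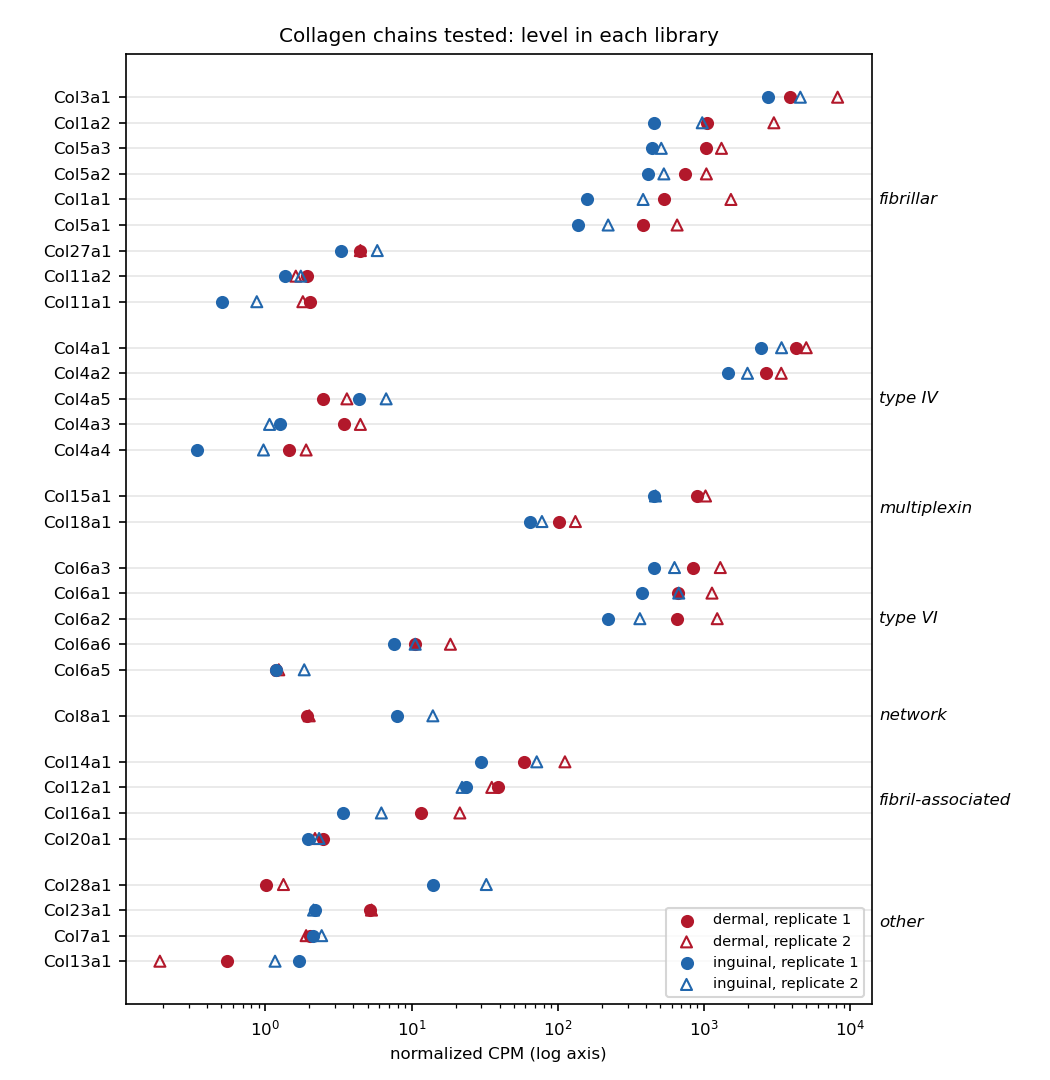
Normalized CPM (log axis) of the 30 tested collagen chains in each of the 4 libraries, grouped by collagen class; filled circles are replicate 1 and open triangles replicate 2, red for dermal and blue for inguinal. Dermal symbols lie to the right for 17 chains, and inguinal symbols to the right for 5, among them Col8a1 and Col28a1.

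The calls depended on the library set. Leaving out dermal replicate 2 left Col15a1, Col5a3 and Col6a2 as the 3 chains called in the dermal direction, beside 2 in the inguinal direction, and 8 of the 13 calls were lost. Without inguinal replicate 2 the number higher in dermal libraries was 16. Replicate 2 exceeded replicate 1 in both depots for 21 of the 30 chains, against 35.3% of all genes. The calls of Col5a3, Col15a1, Col8a1 and Col28a1 were kept under all 14 alternatives tried.

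**Figure D2:**
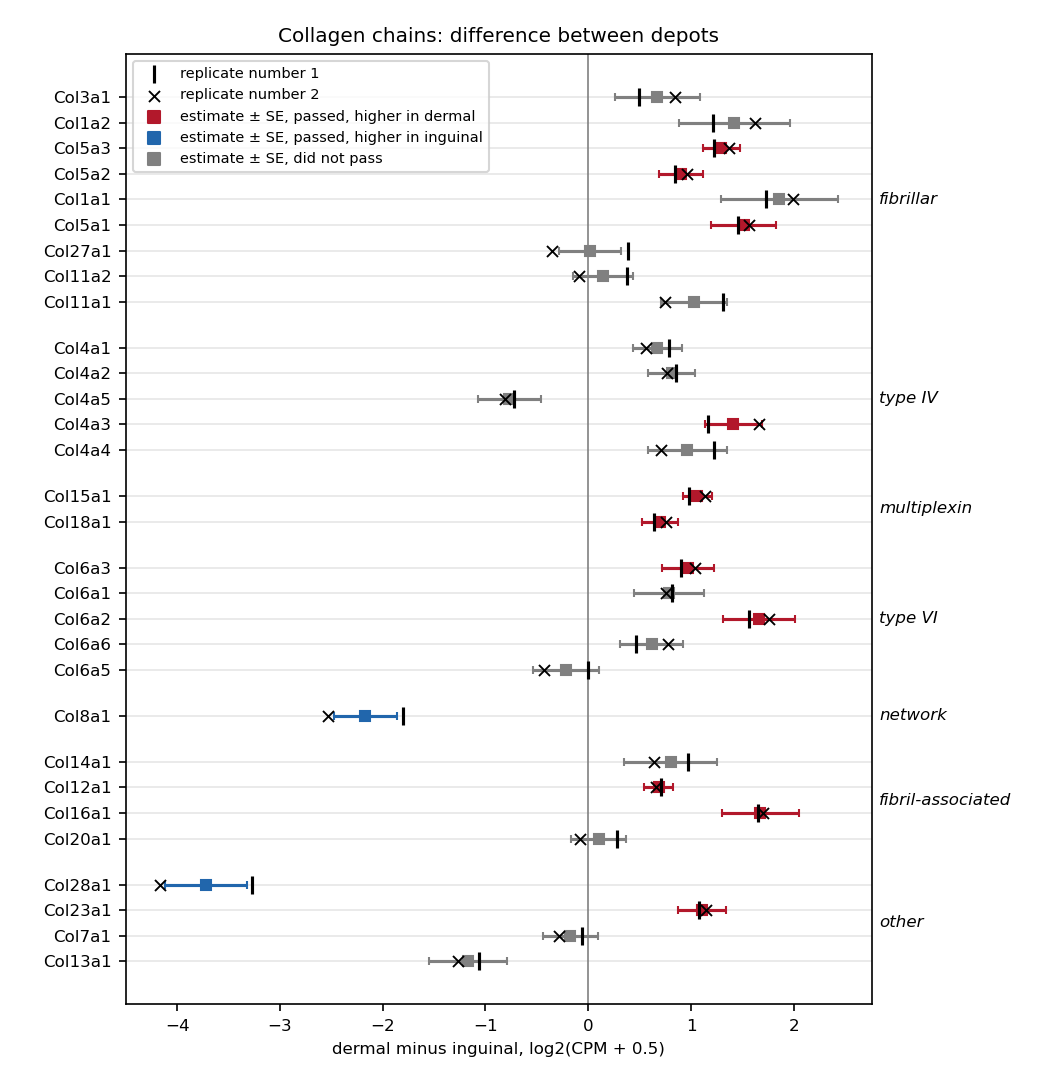
Dermal minus inguinal difference of each tested chain on the log2(CPM + 0.5) scale. Squares with bars are the limma estimate ± SE over all 4 libraries (red, passed and higher in dermal; blue, passed and higher in inguinal; grey, did not pass), the vertical tick is the difference within replicate number 1 and the cross that within number 2; both marks fall right of 0 for 21 chains and left of 0 for 5.

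For the 4 chains whose calls were kept throughout, the 250 bases before the transcript start are printed because the chains differed in opposite directions, Col5a3 and Col15a1 being higher in dermal and Col8a1 and Col28a1 in inguinal libraries. Sequences come from RefSeq on GRCm38.p6, which held a start for 35 of the 44 chains, and read 5′ to 3′ along the gene. Capitals mark exact matches, on either strand, to 3 promoter motifs. The TATA box was searched as TATAAA and, on the other strand, TTTATA. The CCAAT box was searched as CCAAT and, on the other strand, ATTGG. The GC box was searched as GGGCGG and, on the other strand, CCGCCC. The windows are chr9:20815068-20815317 (minus strand) for Col5a3, chr4:47207762-47208011 (plus) for Col15a1, chr16:57754738-57754987 (minus) for Col8a1 and chr6:8192618-8192867 (minus) for Col28a1.
Col5a3: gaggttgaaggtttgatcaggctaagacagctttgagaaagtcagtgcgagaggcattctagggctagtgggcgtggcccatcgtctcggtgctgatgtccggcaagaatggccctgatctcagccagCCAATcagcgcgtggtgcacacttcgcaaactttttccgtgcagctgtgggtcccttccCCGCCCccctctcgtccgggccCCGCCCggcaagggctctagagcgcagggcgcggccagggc
Col15a1: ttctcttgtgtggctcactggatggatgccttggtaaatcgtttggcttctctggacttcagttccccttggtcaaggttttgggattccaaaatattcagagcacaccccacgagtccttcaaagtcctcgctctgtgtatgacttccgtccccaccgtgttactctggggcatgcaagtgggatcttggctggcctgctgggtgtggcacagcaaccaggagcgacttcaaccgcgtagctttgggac
Col8a1: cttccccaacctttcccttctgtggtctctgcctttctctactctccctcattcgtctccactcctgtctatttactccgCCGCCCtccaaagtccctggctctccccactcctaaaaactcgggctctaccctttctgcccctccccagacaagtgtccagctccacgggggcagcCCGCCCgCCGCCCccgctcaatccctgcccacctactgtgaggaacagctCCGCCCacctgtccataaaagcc
Col28a1: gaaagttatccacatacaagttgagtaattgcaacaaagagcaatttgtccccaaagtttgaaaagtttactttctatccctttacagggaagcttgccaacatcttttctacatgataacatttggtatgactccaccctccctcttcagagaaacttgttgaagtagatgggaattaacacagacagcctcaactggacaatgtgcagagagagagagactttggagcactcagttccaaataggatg
The Col5a3 window held 1 CCAAT box and 2 GC boxes, the Col8a1 window held 4 GC boxes, and the windows of Col15a1 and Col28a1 held 0 matches. G and C made up 62.8% of the bases for Col5a3, 53.6% for Col15a1, 60.8% for Col8a1 and 40.4% for Col28a1. Of all 32851 windows of this length, 32.7% held a GC box, 33.8% a CCAAT box and 12.4% a TATA box. The matches do not sort the 4 windows by the depot in which the chain was higher, and they describe letters alone.

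Fibrillar chains of types I, III and V were abundant. Of the 9 fibrillar chains tested, 3 passed, all type V and all higher in dermal libraries, against 7.56% of all genes. The median log2 fold change of the 9 was 1.03, and all 9 estimates were above 0. That median is the value of Col11a1, which met the filter through the dermal libraries alone and so had to be higher there. The estimate of Col27a1 fell below 0 with quantile normalization, edgeR, DESeq2 and without inguinal replicate 1. None of the 9 passed as higher in inguinal libraries, with 0 at an unadjusted limma p under 0.05 and 0 calls by edgeR and DESeq2. With so few chains in a class, 0 calls is near the 8.80% of all genes that passed in that direction. Type V collagen is a minor fibril component known to regulate fibril diameter. Col5a3, whose chain is known for a restricted distribution that includes fat, measured 1024 and 1313 CPM in dermal libraries against 439 and 509 CPM in inguinal ones. Both dermal values exceeded both inguinal values by more than the spread within a depot (log2 fold change 1.30, SE 0.18, adjusted p = 0.00677). Col5a1, the chain found in most type V trimers, measured 380 and 653 CPM against 138 and 221 CPM. Its depots did not overlap (log2 fold change 1.51, SE 0.31, adjusted p = 0.0237). Col5a2, its usual partner, measured 742 and 1036 CPM against 412 and 530 CPM. It too did not overlap (0.91, SE 0.21, adjusted p = 0.0349). Without dermal replicate 2 the calls of Col5a1 (adjusted p = 0.0510) and Col5a2 (0.180) were lost, and both were also lost without the intensity trend (0.0545 and 0.0684). Col5a2 was lost without a filter too (0.0609).

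The chains of types I and III, the main fibril collagens of skin and most connective tissue, did not pass. Col1a1 measured 528 and 1524 CPM in dermal libraries against 159 and 382 CPM in inguinal ones. Col1a2, the second chain of type I, measured 1052 and 2997 CPM against 452 and 970 CPM. For both genes every dermal library lay above every inguinal library, but the libraries of a depot differed by more than 2-fold. Dermal replicate 2 exceeded dermal replicate 1 by 2.88-fold for Col1a1 and 2.85-fold for Col1a2, and in inguinal libraries the corresponding ratios were 2.40 and 2.15. The log2 fold changes were 1.86 (SE 0.57, adjusted p = 0.0733) and 1.42 (SE 0.54, adjusted p = 0.126). Both passed without dermal replicate 1 (adjusted p = 0.00856 and 0.0153) and without inguinal replicate 2 (0.00336 and 0.0127). Within replicate number 1 the differences were 1.73 and 1.22, and within number 2 they were 1.99 and 1.63, on the log2 scale. Col3a1, the single chain of type III, measured 3871 and 8179 CPM in dermal libraries against 2741 and 4547 CPM in inguinal ones. Here the depots overlapped, since inguinal replicate 2 exceeded dermal replicate 1 (log2 fold change 0.67, SE 0.42, adjusted p = 0.312). Within each replicate number the dermal library was the higher, by 0.50 and 0.85 on the log2 scale.

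The cartilage-type fibrillar chains were scarce. Col27a1, a chain of a thin-fibril collagen, measured 4.46 CPM in both dermal libraries and 3.29 and 5.82 CPM in inguinal libraries. The depots overlapped, and its estimate was 0.019 (adjusted p = 0.975). Col11a1, of cartilage fibrils, measured 2.0 and 1.80 CPM against 0.507 and 0.873 CPM (log2 fold change 1.03, adjusted p = 0.0800). Its depots did not overlap. Col11a2 stood at 1.35 to 1.91 CPM in the 4 libraries and overlapped. Col2a1, the main cartilage collagen, had 3 reads in all, and Col24a1 had 7, all in inguinal libraries.

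Markers of fibroblasts and adipocyte progenitors, cells that also make fibrillar collagen, were measured beside these chains. Of 14 such markers, 3 passed as higher in dermal and 0 as higher in inguinal libraries. These were 21.4% and 0% of the markers, against 7.56% and 8.80% of all genes. The 3 were Dpt, Thy1 (log2 fold change 1.53, limma adjusted p = 0.0125) and Fap (1.20, adjusted p = 0.0288). Fap lost its call in 2 of the 14 alternatives. The median log2 fold change of the list was 0.16, and no marker was at 0 in any library. At an unadjusted limma p under 0.05, Pi16, Ly6a and Cd34 were higher in inguinal libraries, and DESeq2 called 1 marker in that direction and edgeR 0. The 14 markers summed to 1278 and 1776 CPM in dermal libraries against 809 and 1125 CPM in inguinal ones. The most abundant was Dpt, encoding dermatopontin, a small matrix protein, at 729 and 739 CPM against 268 and 258 CPM. It differed between depots by a log2 fold change of 1.48 (adjusted p = 0.00197). Next came Dcn, encoding the proteoglycan decorin, at 257 and 534 CPM against 226 and 345 CPM. It overlapped between depots (log2 fold change 0.40, adjusted p = 0.486). Pdgfra, the receptor used to sort progenitors and picked after its values were seen, measured 21.1 and 43.0 CPM against 26.6 and 41.2 CPM. The part of these cells in the collagen levels was not tested.

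Type IV transcripts were carried almost wholly by Col4a1 and Col4a2, whose chains form the common basement membrane trimer. Of 5 tested type IV chains, 1 passed as higher in dermal and 0 as higher in inguinal libraries, against 7.56% and 8.80% of all genes. The median log2 fold change of the 5 was 0.81. In the inguinal direction 1 chain, Col4a5, had an unadjusted limma p under 0.05, and edgeR and DESeq2 called 0. Col4a1 measured 4214 and 4991 CPM in dermal libraries against 2450 and 3383 CPM in inguinal ones. Col4a2 measured 2642 and 3365 CPM against 1459 and 1979 CPM. Neither overlapped between depots, and neither passed (log2 fold change 0.67, SE 0.24, adjusted p = 0.110 and 0.81, SE 0.23, adjusted p = 0.0604). DESeq2 on recovered reads called both (adjusted p = 0.0221 and 0.00376), and Col4a2 also passed without inguinal replicate 2 (limma adjusted p = 0.0198). The genes lie head to head on chromosome 8 and overlap by 22 bases on opposite strands. Endothelial cells also make type IV collagen. All 12 of their listed markers passed as higher in inguinal libraries, against 8.80% of all genes, with no marker at 0 in any library. Of these calls that of Egfl7 ended without the intensity trend (0.0501) or without dermal replicate 1 (0.0534). The part of these cells in the type IV levels was not tested.

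The minor type IV chains were low, and Col4a3 was the only one of them that passed. Col4a3 and Col4a4 encode partners of a trimer best known from the filtering membrane of the kidney, to which Col4a5 contributes the remaining chain. Col4a3 measured 3.46 and 4.46 CPM in dermal libraries against 1.27 and 1.07 CPM in inguinal ones, from 85 and 26 reads. The depots did not overlap (log2 fold change 1.41, SE 0.28, adjusted p = 0.0211), and the call was lost without dermal replicate 1 (0.0557) or dermal replicate 2 (0.126). Col4a4 measured 1.46 and 1.90 CPM against 0.338 and 0.969 CPM. It did not overlap and did not pass (0.96, SE 0.39, adjusted p = 0.143). Col4a4 met the filter through the dermal libraries alone and so had to be higher there. Col4a5, on the X chromosome, had the opposite sign at 2.46 and 3.61 CPM against 4.39 and 6.69 CPM. Here too the depots were apart (log2 fold change -0.77, SE 0.30, adjusted p = 0.137). Col4a6, its head-to-head neighbour 1308 bases away, had 5 reads in all.

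Col4a3 and Col4a4 start 71 bases apart on chromosome 1 in GENCODE M21 and are read in opposite directions, and the stretch between their starts is shown because it is all that separates the pair. It is chr1:82586850-82586920 on GRCm38, given along the plus strand, the strand of Col4a3.
Col4a4 to Col4a3: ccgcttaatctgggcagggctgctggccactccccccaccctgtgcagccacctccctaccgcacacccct
G and C made up 69.0% of it, and it held 0 matches to the 3 boxes searched above, so it has no capitals.

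Both multiplexins were higher in dermal libraries. These collagens carry an end fragment that can be cut off and, for type XVIII, is known as endostatin. Col15a1 measured 895 and 1022 CPM in dermal libraries against 452 and 465 CPM in inguinal ones. The depots were far apart relative to their spread (log2 fold change 1.06, SE 0.14, adjusted p = 0.00633). Col18a1 measured 101 and 132 CPM against 64.9 and 77.7 CPM. It did not overlap (0.70, SE 0.17, adjusted p = 0.0425), but its call was lost without dermal replicate 1 (0.0522), dermal replicate 2 (0.258) or inguinal replicate 1 (0.0525). It was also lost without a filter (0.0616) or the intensity trend (0.0864).

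Of the type VI chains, Col6a2 and Col6a3 passed. Out of 5 tested, 2 passed as higher in dermal and 0 as higher in inguinal libraries, against 7.56% and 8.80% of all genes. The median log2 fold change of the 5 was 0.78. In the inguinal direction 0 had an unadjusted limma p under 0.05, and edgeR and DESeq2 called 0. Col6a2 measured 649 and 1228 CPM in dermal libraries against 219 and 363 CPM in inguinal ones. The depots did not overlap (log2 fold change 1.66, SE 0.35, adjusted p = 0.0253). Without the intensity trend it did not pass (0.0564). Col6a3, whose chain carries the end fragment endotrophin, measured 845 and 1290 CPM against 452 and 627 CPM. It did not overlap (0.97, SE 0.25, adjusted p = 0.0476), and it lost its call without dermal replicate 2 (0.213), without inguinal replicate 1 (0.0624) and with edgeR (0.0513). It was lost as well without a filter (0.0803), with a filter at 5 CPM (0.0535) and without the intensity trend (0.0857). Col6a1 measured 664 and 1131 CPM against 378 and 670 CPM. Here inguinal replicate 2 lay just above dermal replicate 1 (0.78, SE 0.34, adjusted p = 0.169), and the gene passed without inguinal replicate 2 (0.0121). Col6a6, an alternative to the third chain, measured 10.6 and 18.4 CPM against 7.52 and 10.6 CPM and overlapped (0.62, adjusted p = 0.216). Col6a5 stood at 1.18 to 1.84 CPM without separation, and Col6a4 had 1 read in each dermal library and 0 in inguinal libraries.

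Fibril-associated chains were low to moderate in level, and 5 of the 9 did not reach the filter. Of 4 tested, 2 passed as higher in dermal and 0 as higher in inguinal libraries, against 7.56% and 8.80% of all genes. In the inguinal direction 0 had an unadjusted limma p under 0.05, and edgeR and DESeq2 called 0. Col16a1 measured 11.7 and 21.3 CPM in dermal libraries against 3.38 and 6.20 CPM in inguinal ones. Its depots did not overlap (log2 fold change 1.68, SE 0.37, adjusted p = 0.0290), and the call was lost without dermal replicate 2 (0.0997), without a filter (0.0532) and without the intensity trend (0.0540). Col12a1, which lies on type I fibrils, measured 38.8 and 35.3 CPM against 23.6 and 22.1 CPM. The depots were apart, and replicate 2 was slightly the lower library of each (0.69, SE 0.145, adjusted p = 0.0254). The call was lost without dermal replicate 1 (0.193) or dermal replicate 2 (0.111). Col14a1, the most abundant of the class, measured 58.6 and 112 CPM against 29.6 and 71.6 CPM. Its depots overlapped (0.80, SE 0.45, adjusted p = 0.272), and it passed without inguinal replicate 2 (0.00727). Col20a1 lay at 1.94 to 2.46 CPM and did not separate. The type IX chains Col9a1, Col9a2 and Col9a3 had 1, 1 and 16 reads in all, and Col22a1 had 1 read in each library. Col19a1 had 0 reads in dermal and 12 in inguinal libraries, 10 of them in replicate 2.

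The 2 chains that passed as higher in inguinal libraries were Col8a1 and Col28a1. Col8a1, a short-chain collagen of vessel walls and of the membrane behind the cornea, measured 1.91 and 1.99 CPM in dermal libraries against 7.94 and 14.0 CPM in inguinal ones, from 42 and 238 reads. Inguinal libraries were higher in both numbers (log2 fold change -2.17, SE 0.31, adjusted p = 0.00744). Its partner Col8a2 had 6 reads in dermal and 0 in inguinal libraries, and Col10a1, of growth plate cartilage, had 2 reads in all. Col28a1, a collagen with von Willebrand domains described in peripheral nerve of the mouse, measured 1.00 and 1.33 CPM in dermal libraries against 14.0 and 32.4 CPM in inguinal ones, from 25 and 500 reads. The depots were far apart (log2 fold change -3.72, SE 0.40, adjusted p = 0.00342), with differences of -3.27 within replicate number 1 and -4.17 within number 2. Without inguinal replicate 2, the higher library, the estimates were -1.78 for Col8a1 and -3.13 for Col28a1, and both passed.

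Markers of Schwann cells, the glia of peripheral nerve, were set beside Col28a1. Among 9 tested, 3 passed as higher in inguinal and 0 as higher in dermal libraries. These were 33.3% and 0% of the tested markers, against 8.80% and 7.56% of all genes. In the dermal direction Mbp alone had an unadjusted limma p under 0.05, and edgeR and DESeq2 called 0. The 12 listed genes summed to 262 and 255 CPM in dermal libraries against 704 and 555 CPM in inguinal ones. Scn7a, a sodium channel gene, and Egr2, which is also an immediate early gene, both passed and made up most of that sum in every library. Scn7a measured 211 and 202 CPM in dermal libraries against 576 and 422 CPM in inguinal ones (log2 fold change -1.26). Egr2 measured 12.8 and 18.0 CPM against 98.0 and 91.1 CPM (-2.60). Mbp, the next most abundant, had the opposite sign at 30.3 and 25.1 CPM against 18.1 and 19.3 CPM. Of the tested markers 6 did not pass, so the sum stands for Scn7a and Egr2 rather than for the list. The third call was Cdh19, a cadherin gene of the Schwann lineage, at 0.0910 and 0.285 CPM in dermal libraries and 2.11 and 2.81 CPM in inguinal ones (-2.11, adjusted p = 0.0122). It met the filter through the inguinal libraries alone and so had to be higher there. The transcription factor genes Sox10 and Foxd3 were low. Sox10 measured 0.0910 and 0.0949 CPM in dermal libraries against 0.422 and 0.582 CPM in inguinal ones, and Foxd3 was at 0 in both dermal libraries. Pericytes and smooth muscle are cells of the vessel wall, in which Col8a1 is known. Of 11 tested markers of these cells, 8 passed as higher in inguinal and 2 as higher in dermal libraries. These were 72.7% and 18.2% of the tested markers, against 8.80% and 7.56% of all genes. That list summed to 751 and 737 CPM in dermal libraries against 768 and 874 CPM in inguinal ones, with no marker at 0, and was led by Mcam (log2 fold change 0.53) and Cspg4 (0.94), which were the 2 higher in dermal libraries. Of the 14 alternatives, Mcam lost its call in 6 and Cspg4 in 1. Among the 8 calls in the inguinal direction, Acta2 was lost in 6, Pdgfrb in 5, Notch3 in 3 and Tagln in 1. Without dermal replicate 1 all 6 of these calls ended. The part of nerve or vessel wall cells in the levels of Col28a1 and Col8a1 was not tested.

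Among the remaining members Col23a1, a transmembrane collagen, passed as higher in dermal libraries at 5.19 and 5.31 CPM against 2.20 and 2.13 CPM. The libraries of a depot nearly coincided (log2 fold change 1.11, SE 0.23, adjusted p = 0.0252), yet the call was lost without dermal replicate 1 (0.123) or dermal replicate 2 (0.133), with DESeq2 (0.0761) and without a filter (0.0564). Col13a1, also transmembrane, measured 0.546 and 0.190 CPM against 1.69 and 1.16 CPM (-1.17, SE 0.38, adjusted p = 0.0863). Its depots did not overlap. Col7a1, the anchoring fibril chain that fastens epidermis to dermis, lay between 1.90 and 2.42 CPM, with both inguinal libraries slightly higher, and did not pass (adjusted p = 0.698). Col17a1, of keratinocyte hemidesmosomes, had 15 reads in dermal and 11 in inguinal libraries, below the filter. Keratinocyte markers summed to 90.2 and 57.1 CPM in dermal libraries against 26.6 and 19.2 CPM in inguinal ones, where Krt5, Krt14, Krt15, Perp, Epcam and Lgals7 were at 0 in at least 1 library. Of 8 tested, 5 (Krt5, Krt15, Dsp, Perp and Lgals7) met the filter through the dermal libraries alone and so had to be higher there. Of the other 3, Trp63 passed as higher in dermal libraries (log2 fold change 1.19, adjusted p = 0.0225), a call that ended without dermal replicate 1 (0.0927), and 2 did not pass. Trp63 was the most abundant of the list at 46.2 and 34.7 CPM against 21.2 and 14.2 CPM, and it made up most of the sum in each inguinal library. Next came Dsp, at 21.3 and 6.26 CPM against 0.253 and 0.388 CPM. Col25a1 had 9 reads, all in inguinal libraries, and Col26a1 had 8.

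**Figure D3:**
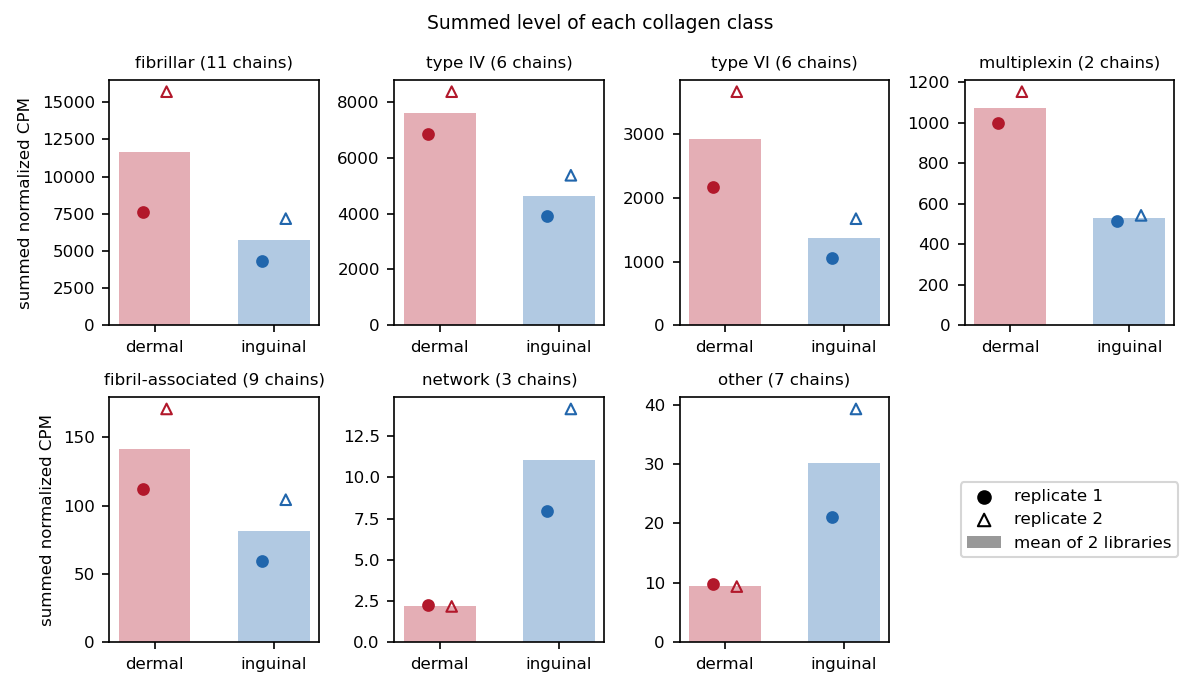
Summed normalized CPM of all chains of each class; bars start at 0 and give the mean of the 2 libraries of a depot, circles are replicate 1 and triangles replicate 2. Dermal libraries are higher for fibrillar, type IV, multiplexin, type VI and fibril-associated chains by depot mean, and inguinal libraries in the network class (7.94 and 14.2 against 2.28 and 2.18 CPM) and in the other types, where Col28a1 lies.

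Summed by class, fibrillar chains reached 7606 and 15711 CPM in dermal libraries against 4346 and 7169 CPM in inguinal ones, a ratio of depot means of 2.03. Type IV chains reached 6864 and 8366 CPM against 3915 and 5371 CPM, a ratio of 1.64. For both classes each dermal library lay above each inguinal library, narrowly so for fibrillar chains in dermal replicate 1 and inguinal replicate 2. Type VI chains had a ratio of 2.14, multiplexins 2.03 and fibril-associated chains 1.73. Replicate 2 exceeded replicate 1 for the fibrillar sum by 2.07-fold in dermal and 1.65-fold in inguinal libraries, whereas for the multiplexin sum it did so by 1.16-fold and 1.05-fold.

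Levels of different genes were compared per kb of transcript, using the GENCODE M21 transcript with the longest coding sequence. On that scale Col3a1 led, with 23.4% and 29.5% of the collagen total in dermal and 29.7% and 32.4% in inguinal libraries. Col4a1 followed with 21.4% and 15.2% in dermal and 22.3% and 20.3% in inguinal libraries, and Col4a2 and Col1a2 came next by mean level per kb. Fibrillar chains made up 43.9% and 55.0% of the total in dermal and 45.5% and 49.7% in inguinal libraries, and type IV chains 35.2% and 25.7% against 36.0% and 32.5%. These shares overlapped between depots. Type VI shares did not, at 13.8% and 14.4% in dermal and 11.6% and 12.6% in inguinal libraries.

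Ratios of chains that share a trimer did not overlap between depots for 3 of 4 pairs. Non-overlap is common with 2 libraries a depot. Among single genes, 31.6% lay apart with dermal libraries higher and 30.1% with inguinal libraries higher. No such share was computed for ratios of genes, and Col6a1 enters both type VI ratios, so this count has no background to be read against. A type I trimer holds more copies of the Col1a1 than of the Col1a2 product, yet per kb of transcript Col1a1 was the lower of the pair in every library. Its ratio to Col1a2 was 0.453 and 0.459 in dermal and 0.318 and 0.355 in inguinal libraries. The ratio of Col4a1 to Col4a2 was 1.55 and 1.45 in dermal and 1.64 and 1.67 in inguinal libraries, a small separation. For Col6a1 over Col6a2, chains that occur in equal number in type VI, the ratio was 0.985 and 0.887 in dermal and 1.66 and 1.78 in inguinal libraries, the widest separation of the 4 pairs. The ratio of Col6a3 to Col6a1 was 0.516 and 0.463 against 0.485 and 0.379 and overlapped. No test was made of these ratios.

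**Figure D4:**
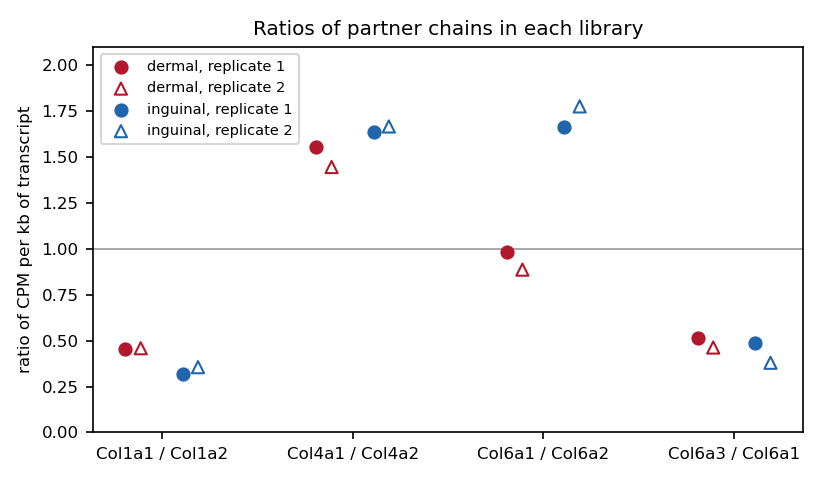
Ratio of CPM per kb of transcript for 4 pairs of partner chains in each library (circles replicate 1, triangles replicate 2, red dermal, blue inguinal; the line marks 1). Col6a1 over Col6a2 lies at 0.887 and 0.985 in dermal and at 1.66 and 1.78 in inguinal libraries.

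Genes that process collagen were described from 4 lists. New chains are hydroxylated and folded in the endoplasmic reticulum, exported, trimmed outside the cell and then cross-linked. Of 37 tested genes of the 4 lists, 4 passed as higher in dermal and 4 as higher in inguinal libraries, and their median log2 fold change was 0.27. Each count was 10.8% of the tested genes, near the 7.56% and 8.80% of all genes that passed in these directions. The 16 tested genes of hydroxylation and folding held 3 calls in the dermal and 2 in the inguinal direction. Plod3, a lysyl hydroxylase that also adds sugars to collagen, measured 166 and 205 CPM in dermal libraries against 95.8 and 88.8 CPM in inguinal ones. Its depots did not overlap (log2 fold change 1.00, SE 0.15, adjusted p = 0.00849). Plod2, the lysyl hydroxylase of the end regions that form cross-links, had the opposite sign at 6.46 and 9.96 CPM against 17.1 and 31.1 CPM (-1.47, SE 0.33, adjusted p = 0.0303). Without dermal replicate 1 it did not pass (0.0914). The prolyl hydroxylase gene P4ha2 was higher in dermal libraries (0.91, adjusted p = 0.0331), lost without dermal replicate 1 (0.0954) or dermal replicate 2 (0.152). The galactosyltransferase gene Colgalt2 was higher in inguinal libraries (-1.21, adjusted p = 0.0306), lost without dermal replicate 1 (0.0544), dermal replicate 2 (0.144) or inguinal replicate 2 (0.0701). The abundant chaperone genes Serpinh1, encoding the collagen chaperone HSP47 (0.51, adjusted p = 0.231), and P4hb (0.42, adjusted p = 0.106) did not pass, although neither overlapped between depots.

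Of 8 export genes, 0 passed with limma, edgeR or DESeq2, and 2, Sec24d and Sec31a, had an unadjusted limma p under 0.05, both higher in dermal libraries. The most abundant were Mia3, the collagen cargo receptor TANGO1 (0.073, adjusted p = 0.725), and Sec31a, a coat protein (0.32, adjusted p = 0.121). Trimming genes gave 1 call in each direction among 6 tested. Adamts2, the protease that removes the front propeptide of fibrillar collagens, measured 140 and 152 CPM in dermal libraries against 41.5 and 53.9 CPM in inguinal ones. The depots were far apart (log2 fold change 1.62, SE 0.16, adjusted p = 0.00293). Tll1, a relative of the protease that removes the rear propeptide, was low and higher in inguinal libraries (-1.50, adjusted p = 0.0247), lost without dermal replicate 1 (0.0910) or inguinal replicate 2 (0.0536). Pcolce, an enhancer of that cleavage, did not pass (0.83, adjusted p = 0.160). Among 7 cross-linking genes 0 passed as higher in dermal libraries with limma or edgeR and 2 with DESeq2, and 4 had an unadjusted limma p under 0.05 in that direction. The transglutaminase gene Tgm2 was higher in inguinal libraries (-0.64, adjusted p = 0.0199), lost without dermal replicate 1 (0.0955) or dermal replicate 2 (0.174), and Pxdn, which cross-links type IV collagen, did not pass (0.45, adjusted p = 0.144). The lysyl oxidase gene Loxl1, chosen after its values were seen, measured 62.3 and 116 CPM against 22.1 and 45.2 CPM and did not pass (1.41, SE 0.40, adjusted p = 0.0592).

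Of 12 collagen receptor genes tested, 1 was called in the dermal and 2 in the inguinal direction, with a median log2 fold change of 0.018. These were 8.33% and 16.7% of a short list, against 7.56% and 8.80% of all genes. Ddr1, a receptor tyrosine kinase that binds collagen, measured 21.8 and 21.4 CPM in dermal libraries against 8.87 and 9.40 CPM in inguinal ones. The libraries of a depot nearly coincided (log2 fold change 1.20, SE 0.17, adjusted p = 0.00679). Itga1, the integrin subunit that prefers type IV collagen, measured 71.7 and 77.7 CPM against 190 and 223 CPM. It was higher in both inguinal libraries (-1.45, SE 0.14, adjusted p = 0.00266). Endothelial markers were also higher in these libraries, and their part in the level of Itga1 was not tested. Gpr56, an adhesion receptor that binds type III collagen, was higher in inguinal libraries as well (-1.34, SE 0.25, adjusted p = 0.0178). Itgb1, the shared beta subunit and the most abundant of the list, measured 422 and 499 CPM against 592 and 679 CPM and did not pass (-0.47, adjusted p = 0.0919).

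**Figure D5:**
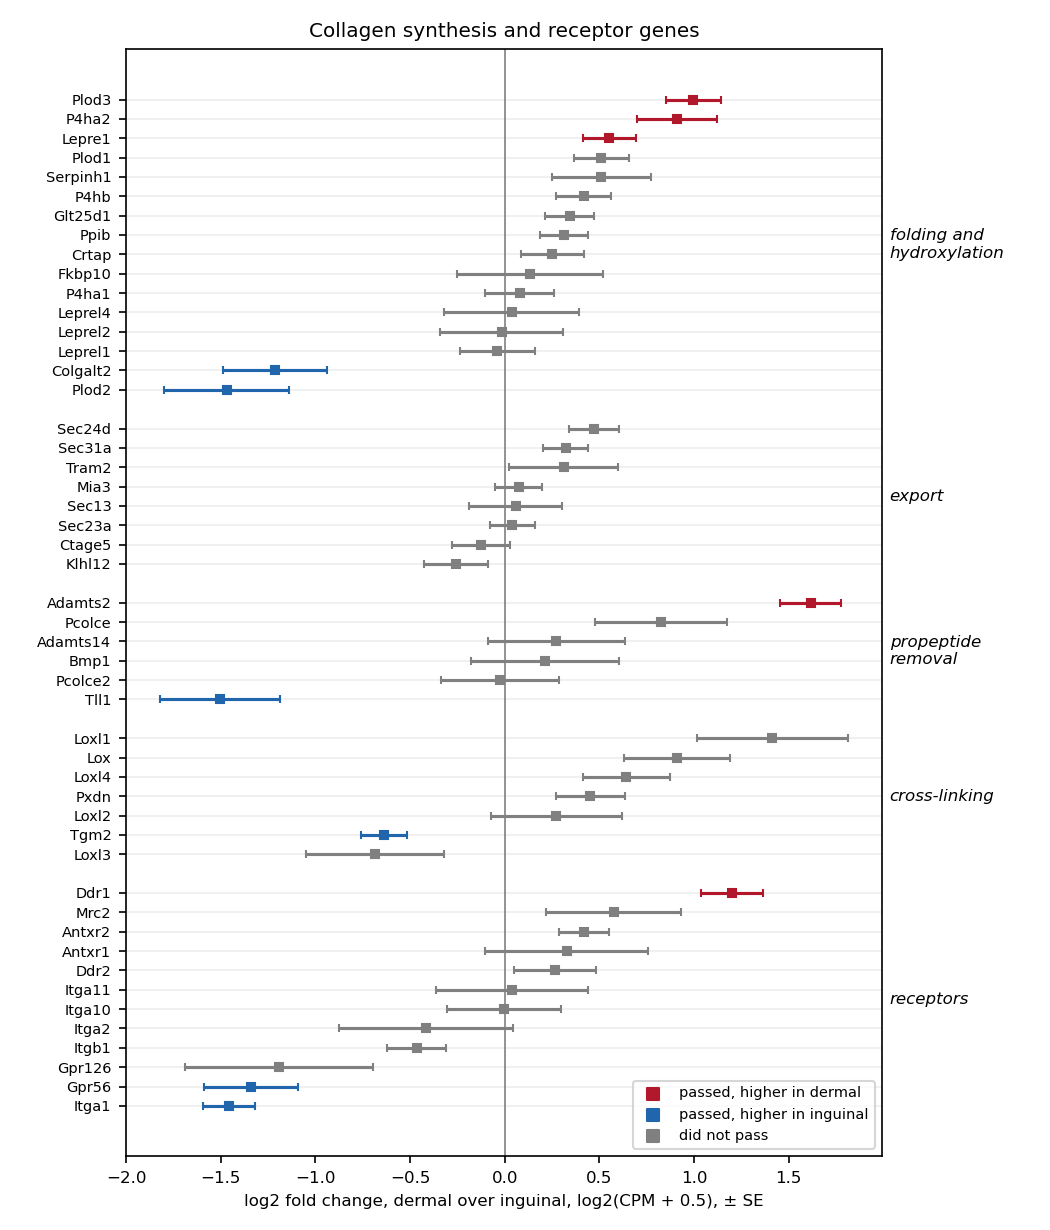
Limma estimate ± SE of the dermal minus inguinal difference in log2(CPM + 0.5) for the tested genes of 4 collagen synthesis lists and the collagen receptor list; red passed and higher in dermal, blue passed and higher in inguinal, grey did not pass. Adamts2 lies farthest right at 1.62 and Tll1 farthest left at -1.50.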

How the data were processed

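RNA of purified dermal and inguinal adipocytes was sequenced in 2 libraries per depot, prepared with a stranded total RNA kit per the labels' protocols. The deposited signal is normalized CPM per gene as computed by the authors, and its columns sum to between 960745 and 1074951. TopHat2 2.0.12, featureCounts from Subread 1.4.6, edgeR and the mm10 build appear in the submitters' processing notes, with no roles. No source used here gives the strand setting of the counting, and 6 of the 13 chains called have a gene annotated on the opposite strand. Dividing each value by that of a single read gave whole numbers (tolerance 0.001) for 100% of genes, and these served as reads.

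Groups came from the titles. The 12797 genes at 1 CPM or more in 2 or more libraries entered a two-sided limma test (version 3.58.1, R 4.3.3) of log2(CPM + 0.5). It used an intensity trend and a Benjamini-Hochberg threshold of 0.05. That scale understates changes of low genes. Alternatives were other pseudocounts, filters, normalizations, no trend, edgeR 4.0.16 and DESeq2 1.42.0 on recovered reads, a replicate block and leaving out each library. Named genes were all collagen rows, up to 4 called members and the 2 most abundant of each synthesis or receptor list, and the 2 most abundant of each marker list. Lepre1, also called in the folding list, is therefore not described. Other genes, such as Sec24d, Sox10, Cdh19 and Pi16, were named after their values were seen. The members and lists were chosen with earlier results of these data known. Gene positions and lengths came from GENCODE M21 on GRCm38. The value of 3 reads was 0.253 to 0.291 CPM, and read counts carry counting error only.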

Additional observations from a re-analysis of the deposited data

How the results depend on the processing

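Of 410 pairs of a tested chain and an alternative, 354 kept direction and side of the threshold, 28 lost a call, 22 gained a call and 6 changed sign. The number of chains higher in dermal libraries was 6 without a filter and 6 without the intensity trend, and 3 to 16 with libraries left out, against 11. The number higher in inguinal libraries was 2 with each library left out. Over all genes, leaving out libraries gave 339 to 1212 calls higher in dermal and 568 to 1470 higher in inguinal libraries, against 968 and 1126. edgeR called 10 chains and DESeq2 12 chains as higher in dermal libraries.

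The replicate numbers are shared by the depots but no label ties them to an animal, litter or day. Deviations of the same-numbered libraries from their depot means correlated at 0.46 across genes. With the number as a replicate block, 21 chains passed in the dermal direction and 4 in the inguinal one, and over all genes 2342 and 2384. Such a fit leaves a single residual degree of freedom per gene, so its p-values rest largely on variance that limma shares across genes. They should not be read as the strength of evidence from 2 libraries a depot. All 13 chains called without the block passed. The others were Col1a1 (limma adjusted p = 5.78e-08), Col1a2 (3.45e-06), Col3a1 (0.0139), Col4a1 (0.00927), Col4a2 (0.00101), Col6a1 (0.000181), Col14a1 (0.000160), Col6a6 (0.0125), Col11a1 (0.0210), Col4a4 (0.0316), Col13a1 (0.0153) and Col4a5 (0.0158), the last 2 in the inguinal direction.

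The median log2 fold change with libraries left out was 0.67 to 1.25 for fibrillar, 0.56 to 1.03 for type IV, 0.39 to 1.20 for type VI and 0.45 to 1.04 for fibril-associated chains. The fibrillar median was 1.30 with a pseudocount of 0.1, 1.36 with a filter at 5 CPM, 1.30 with edgeR and 1.29 with DESeq2. The type VI median was 0.70 without a filter, 0.88 with a filter at 5 CPM, 0.90 with quantile normalization and 0.87 with plain column sums. Quantile normalization gave 0.62 for type IV, and without a filter the fibril-associated median was 0.0056, with the scarce chains counted in. The log2 ratio of summed collagen was 0.92, with 0.52 to 1.24 when libraries were left out.

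Sign changes concerned Col27a1 (-0.082 with quantile normalization, -0.029 with edgeR, -0.040 with DESeq2, -0.35 without inguinal replicate 1), Col20a1 (-0.0052 to 0.21 with libraries left out) and Col6a5 (-0.46 to 0.022 with libraries left out), for which the cause was not tested. Coding length in place of transcript length, chosen after seeing the data, gave ratios of 0.477 for Col1a1 over Col1a2 in dermal, 1.73 for Col4a1 over Col4a2 in inguinal, 1.80 for Col6a1 over Col6a2 in inguinal, and 0.377 and 0.333 for Col6a3 over Col6a1 in dermal and inguinal libraries. Plod2, Colgalt2 and P4ha2 lost their calls without a filter (0.0527, 0.0628 and 0.0543), and Plod2, P4ha2 and Tgm2 without the intensity trend (0.0575, 0.0540 and 0.0540). At this depth, chains with a few reads per library could not be compared.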
